A study of Rattus norvegicus with 18 samples.

Results

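The library of interstitial cells, the cells that lie between the tubules of the rat testis, was set against each of 7 germ cell libraries. A probe set counted as higher where the interstitial signal was at least 250 and at least 3-fold over every one of the 7, after all signals had been raised to a floor of 50. It counted as lower where every germ library was at least 250 and at least 3-fold over the interstitial signal. Of 31042 probe sets, 971 (3.13%) were higher than all 7 and 283 (0.912%) were lower than all 7. The comparison used 8 of the 9 libraries of the series, which are 16 of its 18 arrays.

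All cells came from testes of 22-day-old rats, of a strain the labels do not name. The interstitial cells carry no culture label. The germ cell libraries were laminin-binding cells and laminin non-binding cells, both labelled as cultured without a day, germ cells kept on STO for 1, 5, 10 and 20 days, and germ cells kept on MSC1 for 20 days. Laminin is a basement membrane protein, STO cells are feeder fibroblasts from mouse embryos, and MSC1 cells are a mouse Sertoli line, named for the somatic cell type that nurses germ cells inside the tubule. The labels do not say whether feeder cells were removed before RNA was taken, how the interstitial fraction was made, or how many animals were pooled. Each population had been hybridised once to each of 2 types of oligonucleotide array (A and B) after 2 rounds of amplification from 50 ng of total RNA. There were no replicates, the 7 germ libraries are different conditions, and no fold below has an error or a p-value. Signals of different probe sets are not comparable as levels, so each gene is set only against itself in other libraries.

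The interstitium holds Leydig cells, macrophages, fibroblasts, vessels and nerves. Leydig cells make testosterone from cholesterol: the carrier Star brings cholesterol into the mitochondrion, Cyp11a1 cuts its side chain, and Hsd3b1, Cyp17a1 and Hsd17b3 carry the product on to testosterone under the drive of luteinizing hormone, whose receptor is Lhcgr. Testicular macrophages lie close to Leydig cells, and fibroblasts and peritubular cells lay down the collagens and proteoglycans of the tissue between the tubules.

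A probe set past all 7 germ libraries had to pass each single comparison, so by this rule no single comparison could give fewer probe sets. Against laminin-binding cells 2122 probe sets (6.84%) were higher in interstitial cells and 1791 (5.77%) lower, and against laminin non-binding cells 2325 (7.49%) were higher and 1634 (5.26%) lower. Against germ cells on STO for 1, 5, 10 and 20 days, 1893 (6.10%), 2150 (6.93%), 1952 (6.29%) and 2235 (7.20%) were higher, and 1675 (5.40%), 1911 (6.16%), 1692 (5.45%) and 1730 (5.57%) were lower. Against germ cells on MSC1 1984 (6.39%) were higher and 1853 (5.97%) lower. The single comparisons thus lay close to each other. The fold of a probe set is given below against the nearest germ library, which is the germ library with the highest signal for a higher probe set and the lowest signal for a lower one. The median fold was 5.14 over the 971 higher and 4.51 over the 283 lower probe sets, and 162 and 23 of them reached 10-fold. For 75 of the higher ones all 7 germ libraries were under the floor, so that their fold is a lower bound. The nearest germ library of the other 896 was MSC1 day 20 for 237, laminin-binding for 194, STO day 20 for 137, STO day 1 for 127, laminin non-binding for 84, STO day 5 for 74 and STO day 10 for 43. Among probe sets assigned to 1 gene, the one that just passed as higher was that of Nrros, at 3.006-fold. The one that just missed was that of Scamp1, at 2.999-fold.

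**Figure D1:**
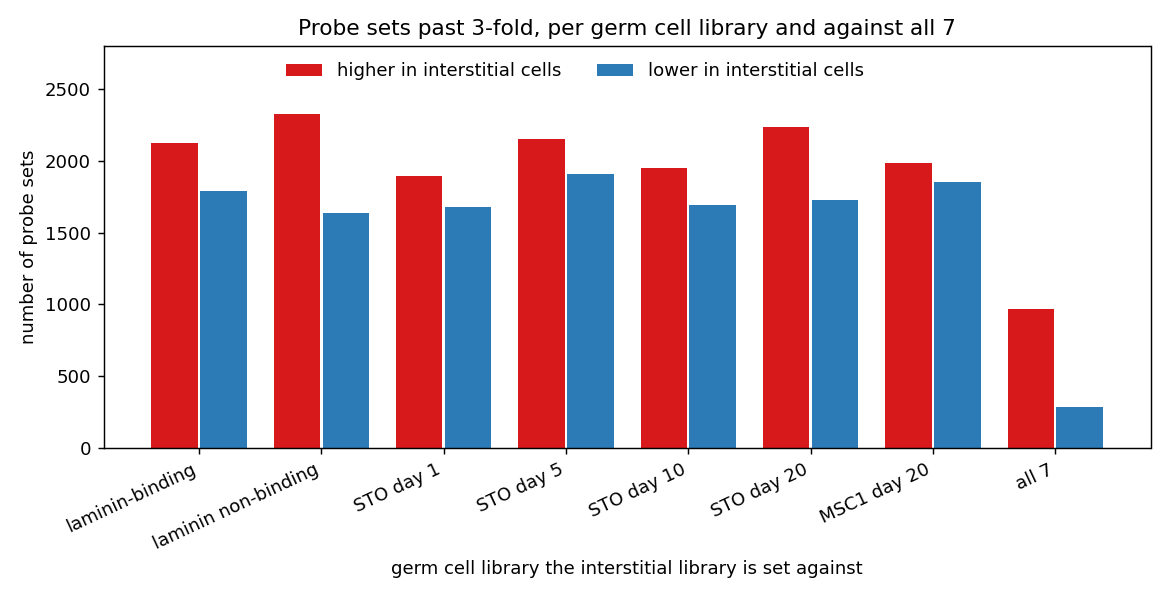
Number of probe sets past 3-fold (vertical axis) for the interstitial library against each germ cell library and against all 7 at once, with probe sets higher in interstitial cells in red and lower in blue. The 7 single comparisons gave between 1893 and 2325 higher and between 1634 and 1911 lower probe sets, and 971 and 283 passed against all 7.

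Across 17080 probe sets whose mean signal reached 100, the log2 signals of the interstitial library had a Pearson correlation of 0.46 to 0.53 with the 7 germ libraries and 0.75 with the tubular somatic library, a description of single libraries on shared array types. The 100 probe sets that both array types hold gave the only repeated measurement. The standard deviation of their difference in log2 fold between the types was divided by the square root of 2. This gave 0.19 to 0.28 for a single fold against a germ library, on average 0.23. Here 2 such deviations correspond to 1.38-fold. These deviations do not cover the spread between animals or cell preparations, as each population had 1 library. Single probe sets differed between the types by up to 1.80 in log2. Of the 100, 4 to 10 passed 3-fold against a germ library on 1 type only. Of these 100, 2 were higher than all 7 on type A, 2 on type B and 2 on both. On type A the interstitial array had the smallest scale factor, 0.391, so its floor of 50 stood for an unscaled signal of 128, against 33.1 to 98.0 in the germ libraries. The same held on type B, with a scale factor of 1.047 and an unscaled floor of 47.8, against 12.5 to 34.7. The ratio of 3' to 5' signal of Gapdh, which grows with RNA decay and with shortening in amplification, was 7.94 in the interstitial library on type A, against 5.63 and 7.07 in the laminin-sorted and 14.7 to 29.7 in the feeder-grown libraries. The same ratio of actin was 41.2 in the interstitial library on type A, against 21.6 and 8.91 in laminin-binding and non-binding cells and 25.8 to 94.3 in the feeder-grown libraries. The part of RNA quality in the calls was not tested. In such bulk RNA, fewer cells of a type and less RNA per cell cannot be told apart.

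Gene lists were read with 1 probe set per gene, and a gene counted as measured where any of the 8 libraries reached the floor. Among 12268 measured genes, 532 (4.34%) were higher than all 7 germ libraries, 183 (1.49%) were lower, and 193 (1.57%) were higher than 6 of the 7. The median log2 difference over all measured genes, interstitial minus the mean of the 7 germ libraries, was -0.13. The lists with the highest medians were those of the basement membrane (1.96), matrix proteases (1.76), fibrillar collagens (1.69) and proteoglycans (1.43), and those with the lowest were the general germ cell genes (-4.14) and the genes of meiotic prophase (-2.49).

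**Figure D2:**
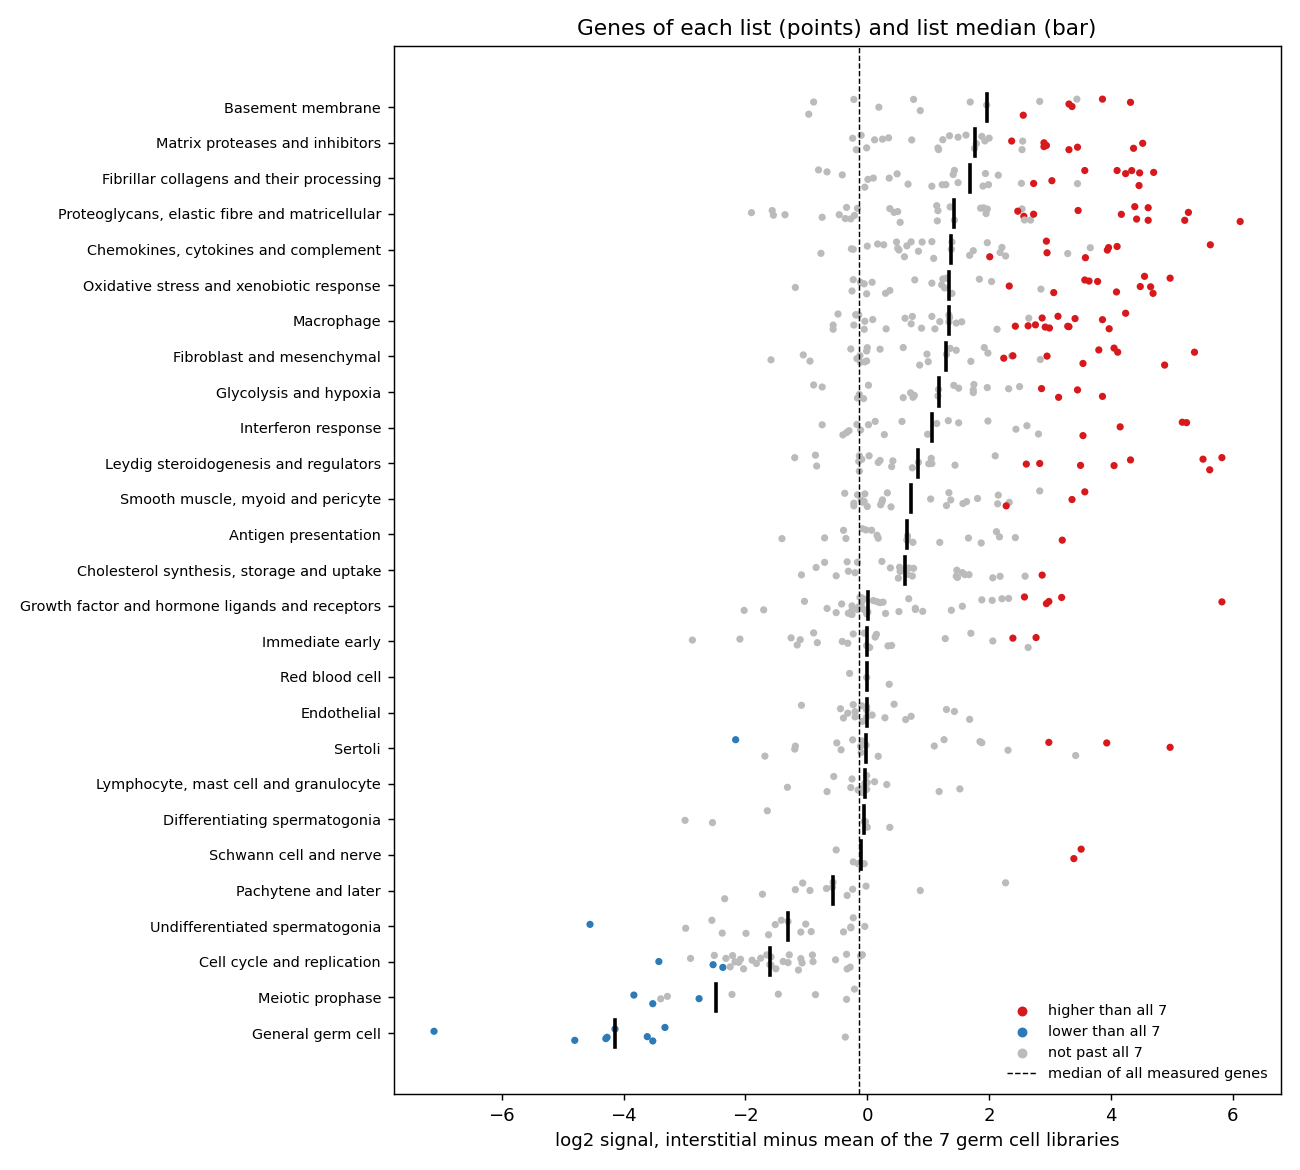
Log2 signal difference, interstitial minus the mean of the 7 germ cell libraries (horizontal axis), for each measured gene (point) of 27 gene lists, with the list median as a black bar and the median of all measured genes (-0.13) as a dashed line. Red points are genes higher than all 7, blue points lower than all 7 and grey points neither; red points lie in 18 of the lists and blue points in 5.

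The labelled tissue was checked against markers of the cells it could hold. Leydig markers summed to 5458 in interstitial cells, against 202 to 595 in the germ libraries, macrophage markers to 5423, against 652 to 2125, and fibroblast markers to 19272, against 350 to 2254. Such sums are led by the brightest probe sets. Higher than all 7 germ libraries were 3 of the 7 Leydig markers on the arrays, 4 of 10 macrophage and 5 of 6 fibroblast markers. Hsd17b3, Insl3 and C1qb were under the floor in interstitial cells. The highest germ sums were those of STO day 20 for the Leydig and fibroblast markers and of MSC1 day 20 for the macrophage markers. Sertoli markers summed to 2354 in interstitial cells, 252 to 1296 in the germ libraries and 7245 in the tubular somatic library, with Amh and Sox9 under the floor in interstitial cells and Cldn11 at 1621. Germ cell markers summed to 551 in interstitial cells, against 5021 to 19513. Endothelial, smooth muscle, mast cell and red blood cell sums of interstitial cells lay within the range of the germ libraries. Every lymphocyte and Schwann marker on the arrays was under the floor in interstitial cells, so that their sums, 52.4 and 29.7, carry no order.

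Star, Cyp11a1 and Hsd3b1, of the first steps of steroid synthesis, were far higher in interstitial cells. Several late markers of mature Leydig cells were dim. Of 27 measured genes of the Leydig list, 8 (29.6%) were higher than all 7 germ libraries and none was lower, with a list median log2 difference of 0.84. The 8 were Star, Cyp11a1, Hsd3b1, Hsd11b1, Tspo, Gata4, Igf1 and Pdgfra.

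Star, the cholesterol carrier, had a signal of 2094 in interstitial cells, against 106 in laminin-binding, 95.5 in laminin non-binding, 62.5, 45.9, 97.5 and 404 in STO day 1, 5, 10 and 20, and 114 in MSC1 cells. The interstitial signal lay 5.18-fold above STO day 20, which stood apart from the other germ libraries, and the tubular somatic library had 672. Cyp11a1, the side-chain cleavage enzyme, had 655 in interstitial cells, against 17.1 to 80.2 with a median of 50.3, which is 8.17-fold over MSC1. Hsd3b1 had 2400 in interstitial cells, against 10.5 in laminin-binding, 72.1 in laminin non-binding, 27.1, 13.0, 1.8 and 30.3 in STO day 1, 5, 10 and 20, and 12.6 in MSC1 cells. Laminin non-binding was the only germ library above the floor for Hsd3b1, and the interstitial signal was 33.3-fold over it.

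The start region of Hsd3b1 is shown because this gene had the largest fold of the steroid enzymes, and the capitals mark matches to the AP-1 motif. It comes from RefSeq on GRCr8, with 250 bases before and 50 after the start of the gene.
Hsd3b1, chr2:188864645-188864944, minus strand: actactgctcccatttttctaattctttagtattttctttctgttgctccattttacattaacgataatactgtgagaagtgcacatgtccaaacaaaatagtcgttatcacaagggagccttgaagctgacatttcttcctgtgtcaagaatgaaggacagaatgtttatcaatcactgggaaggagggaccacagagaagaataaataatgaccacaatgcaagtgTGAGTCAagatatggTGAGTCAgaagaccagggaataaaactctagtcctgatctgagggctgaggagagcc
The letters searched were TGANTCA for AP-1, a motif of immediate early factors, CAAGGNCA for NR5A1 (SF-1, a driver of steroidogenic genes) and GAGGAAGT for PU.1 (a macrophage factor), each on both strands. The AP-1 matches of Hsd3b1 begin 22 and 7 bases before the start. AP-1 letters were found in 7.33% of all 27457 RefSeq promoters of this length, in 5.47% of the 11359 promoters of genes on the arrays, in 7.92% of the 404 promoters of genes higher than all 7 and in 3 of 23 promoters of the Leydig list. NR5A1 letters were found in 6.41% of all promoters, in 4.95% of those of genes on the arrays and in 5.45% of those of higher genes, and the 23 Leydig promoters held 0 in this window.

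Hsd11b1, which interconverts active and inactive glucocorticoid and is a marker of maturing Leydig cells in the rat, had 3136 in interstitial cells, against 7.0 to 54.1 in 6 germ libraries and 258 on STO day 20. Its fold over that library was 12.2. Tspo, a mitochondrial protein linked to cholesterol handling, had 1308 in interstitial cells, against 139 to 240 in the germ libraries. Gata4, a transcription factor of Leydig and Sertoli cells, had 652, against 69.0 to 152 in the germ libraries, and 1089 in the tubular somatic library. A second probe set of Gata4 read 57.7 in interstitial cells, against 27.0 to 74.3, and was not called.

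The growth factor Igf1, which acts on Leydig cell maturation, and the receptor Pdgfra, found on stromal and Leydig precursor cells, were both high. Igf1 had 2881 in interstitial cells, against 14.7 to 57.0 with a median of 31.5, a 50.5-fold difference and the largest among genes with a germ signal above the floor. All 3 probe sets of Igf1 were called, the others at 31.8-fold and at least 18.0-fold. Pdgfra had 3622 in interstitial cells, against 83.4 in laminin-binding, 27.0 in laminin non-binding, 470, 602, 649 and 300 in STO day 1, 5, 10 and 20, and 106 in MSC1 cells. The 4 STO libraries were the highest germ libraries for Pdgfra, and the nearest, STO day 10, lay 5.58-fold below interstitial cells.

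Several other members of the pathway did not reach the minimum of 250, while Fdx1 and Hsd17b10 reached it and were not called. Fdx1 had 4675 in interstitial cells, against 1390 to 5734 with laminin-binding the highest. Hsd17b10 had 636, against 206 to 623. Cyp17a1, which makes androgens from progestins, had 136 in interstitial cells, against 3.1 to 35, and Lhcgr had 104, against 7.3 to 39.5. Both interstitial signals lay above all 7 germ signals without being called. Hsd17b3, the last enzyme to testosterone, had 31.4 in interstitial cells, against 32.5 to 82.5, and Insl3, a hormone of mature Leydig cells, had 36.6, against 24.2 to 71.4. Interstitial Insl3 and Hsd17b3 signals were under the floor. Nr5a1 was read by 2 probe sets that disagreed: type A gave 0.9 in interstitial cells, under the floor in all 8 libraries, and type B gave 799, against 12.8 to 90.9, an 8.79-fold difference. Akr1c14, which reduces androgens in immature Leydig cells, was also called only by its type B probe set, at 417 in interstitial cells, against 7.4 to 106.

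Cholesterol genes showed little of this. Of 28 measured genes of cholesterol synthesis, storage and uptake, Soat1 alone was higher than all 7 (3.57%, under the 4.34% of all genes), and the list median was 0.62. Soat1, which esterifies cholesterol for storage, had 633 in interstitial cells, against 57.9 to 136. Msmo1, a sterol synthesis enzyme, and Abca1, a cholesterol exporter, passed 6 of the 7, and Abca1 had 5800 in interstitial cells, against 318 to 3418 with STO day 1 the highest. A dimmer probe set of Abca1 was called, with 306 in interstitial cells, against 15.6 to 72.7, a 4.21-fold difference.

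**Figure D3:**
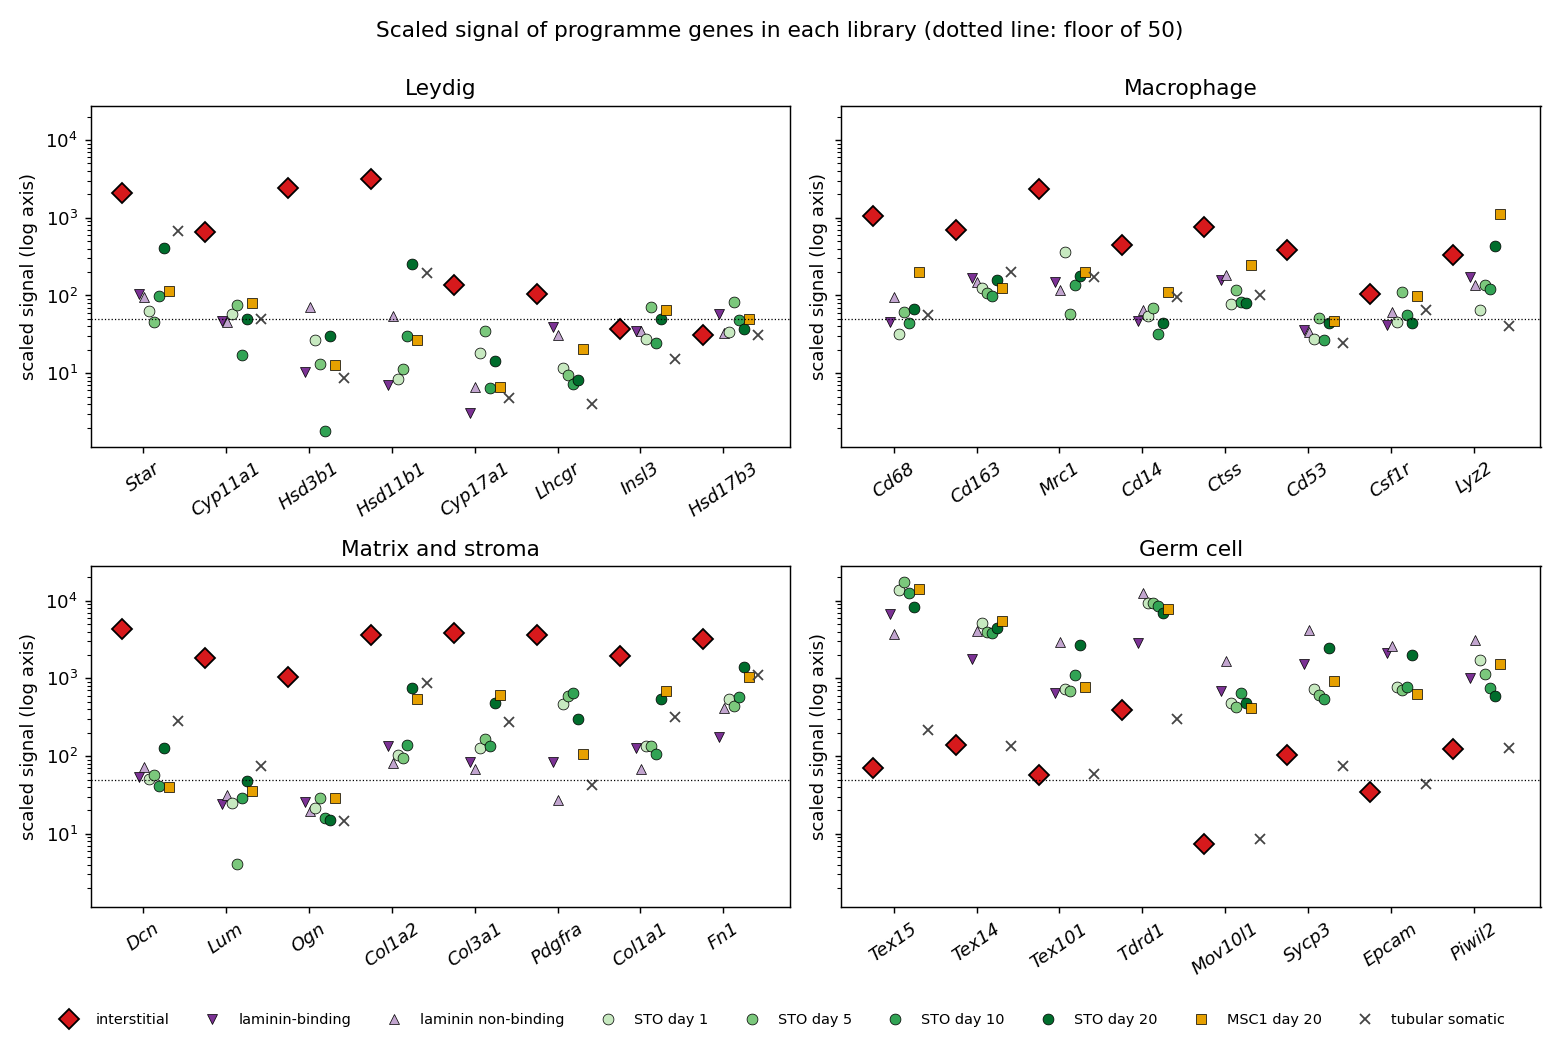
Scaled signal on a log axis of 8 genes in each of 4 programmes (horizontal axis), with the interstitial library as red diamonds, the 7 germ cell libraries as coloured markers to their right and the tubular somatic library as crosses; 1 array per point. Interstitial Star, Cyp11a1, Hsd3b1 and Hsd11b1 lie above all germ libraries at 655 to 3136, the interstitial signals of Insl3 and Hsd17b3 are under the floor, and the germ cell genes lie below all germ libraries.

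Macrophage genes such as Cd68, Cd163 and Mrc1 were higher in interstitial cells than in all 7 germ libraries. No measured class II gene was called, where 4.34% of all measured genes were called higher. Of 38 measured macrophage genes, 13 (34.2%) were higher than all 7 and none was lower, with a median log2 difference of 1.34. They were Cd68, Cd163, Mrc1, Cd14, Fcgr2b, Fcer1g, Ctss, Cd53, Cd48, Mpeg1, Clec10a, Pf4 and Gpnmb.

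Cd68, a lysosomal glycoprotein of macrophages, had 1047 in interstitial cells, against 45.2 in laminin-binding, 96.9 in laminin non-binding, 32.1, 61.6, 44.6 and 67.4 in STO day 1, 5, 10 and 20, and 201 in MSC1 cells. Mrc1, the mannose receptor, had 2358 in interstitial cells, against 58.2 to 361 with STO day 1 the highest. Cd163, the scavenger receptor for haemoglobin, was read by 2 type B probe sets, one with 2579 in interstitial cells, against 5.0 to 84.9, and one with 705, against 97.1 to 169. The folds of the 2 Cd163 probe sets were 30.4 and 4.16, so the direction was shared and the size was not.

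The start regions of Cd68 and of the leukocyte genes Ctss and Cd53 are shown because these genes were higher than all 7 and hold a searched motif, with capitals for AP-1 letters in Cd68 and for PU.1 letters, read on the opposite strand, in Ctss and Cd53.
Cd68, chr10:54882392-54882691, minus strand: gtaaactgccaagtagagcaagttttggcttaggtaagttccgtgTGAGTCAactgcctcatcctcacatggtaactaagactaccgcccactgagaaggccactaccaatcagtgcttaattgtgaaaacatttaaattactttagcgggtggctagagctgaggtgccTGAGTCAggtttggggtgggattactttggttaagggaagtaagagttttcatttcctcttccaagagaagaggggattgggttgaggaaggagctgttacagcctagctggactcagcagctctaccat
Ctss, chr2:185775146-185775445, plus strand: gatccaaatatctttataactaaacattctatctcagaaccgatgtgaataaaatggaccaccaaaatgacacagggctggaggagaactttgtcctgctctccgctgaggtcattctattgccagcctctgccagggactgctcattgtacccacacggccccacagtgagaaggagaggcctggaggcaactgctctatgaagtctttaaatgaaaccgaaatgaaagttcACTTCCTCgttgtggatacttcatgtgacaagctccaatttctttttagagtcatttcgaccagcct
Cd53, chr2:197087847-197088146, minus strand: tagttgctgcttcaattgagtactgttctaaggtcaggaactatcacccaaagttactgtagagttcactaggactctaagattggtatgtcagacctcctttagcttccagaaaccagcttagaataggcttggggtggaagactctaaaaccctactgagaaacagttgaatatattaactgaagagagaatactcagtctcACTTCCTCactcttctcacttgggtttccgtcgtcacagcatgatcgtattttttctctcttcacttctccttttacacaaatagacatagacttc
The PU.1 letters lie 17 bases before the start in Ctss and 46 bases before it in Cd53, and the AP-1 letters of Cd68 begin 205 and 80 bases before it. PU.1 letters were found in 4 of 26 promoters of the macrophage list, in 3.96% of the promoters of genes higher than all 7, in 2.49% of those of genes on the arrays and in 2.44% of all promoters.

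Among receptors, Fcgr2b, an inhibitory Fc receptor, had 532 in interstitial cells and 43.2 or less in every germ library, at least 10.6-fold. Fcer1g, the Fc receptor signalling chain, had 564, against 56.6 to 145, and Clec10a, a lectin of tissue macrophages, had 558, against 3.9 to 83.7. Cd14, the lipopolysaccharide co-receptor, had 451, against 31.7 to 111. Ctss, a lysosomal protease, had 765, against 77.7 to 247, only 3.10-fold over MSC1. Cd53, a leukocyte tetraspanin, had 380, against 27.0 to 50.7, and Pf4, a chemokine of platelets and macrophages, had 981, against 37.0 to 197. For 6 of the 12 genes with a germ signal above the floor MSC1 day 20 was the highest germ library.

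Some defining macrophage markers were not called, and 29 of the 38 measured genes had a log2 difference above 0. Aif1 had 69.3 in interstitial cells, against 59.5 to 161. Fcgr3a had 54.3, against 46.9 to 141, and Adgre1 had 59.7, against 9.7 to 212. Cx3cr1, Tyrobp and Cybb were under the floor in interstitial cells. Csf1r, the receptor for the growth factor of macrophages, had 106 in interstitial cells, against 41.3 to 111, and C1qb had 1.4, against 2.2 to 22.0. C1qa had 246, just under the minimum, against 42.1 to 68.0. Lyz2, a lysozyme of macrophages, had 331 in interstitial cells, against 65.1 to 1103, and MSC1 day 20 was the library with the 1103. The general leukocyte marker Ptprc had 126, against 1.4 to 37.3.

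Antigen presentation had 1 call among 20 measured genes (5.00%), near the 4.34% of all measured genes. It was that of B2m, the light chain of class I molecules, with 3816 in interstitial cells, against 294 to 1116. Another probe set of the class I gene RT1-S3 was called as well, with 713 in interstitial cells, against at most 180. The class II genes RT1-Da and RT1-Ba had 93.0 and 76.7 in interstitial cells, against 36.1 to 76.3 and 8.8 to 114, and the invariant chain Cd74 had 112, against 38.7 to 121. None of the 17 measured genes of lymphocytes, mast cells and granulocytes was called, and so short a list says little at the 4.34% of all genes. The list median was -0.04. Another probe set of Gzmb, a granzyme of cytotoxic lymphocytes, on type B had 264 in interstitial cells, against 35.6 or less, and was at least 5.28-fold higher. The T cell receptor chains Cd3d, Cd3e and Cd3g were all under the floor in interstitial cells.

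Secreted immune factors included chemokines and complement. Of 34 measured genes, 8 (23.5%) were higher than all 7. Cxcl12, a chemokine of stromal cells, had 3762 in interstitial cells, against 34.7 to 254, and Ccl6 and Ccl11 had 767 and 778, against all germ libraries under the floor. Those are differences of at least 15.3-fold and at least 15.6-fold. A type B probe set of Ccl6 had 108 in interstitial cells, against 12.5 to 78.6, and was not called. Cxcl16 had 751, against 18.0 to 101, and Il33, an alarmin of stromal nuclei, had 385, against 3.5 to 42.6. Another probe set of Il33 had 113, against 31.2 to 115, and was not called. The complement genes C1s, C2 and C3 had 4371, 3190 and 260 in interstitial cells, against germ maxima of 1201, 548 and 81.8, and C3 was not called with quantile normalization. The interferon-induced genes Ifit2, Ifitm1, Ifitm2 and Ifitm3 were the 4 called of 22 measured (18.2%), with folds of 5.72 (Ifitm3) and more. Ifit2 had 3319 in interstitial cells, against 57.0 to 195 in the germ libraries, and 6261 in the tubular somatic library. Ifitm1 had 3066 in interstitial cells, against 61.5 to 160.

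Extracellular matrix genes were called in each of 4 lists. Of 30 measured genes of fibrillar collagens and their processing, 9 (30.0%) were higher than all 7, as were 12 of 39 proteoglycan, elastic fibre and matricellular genes (30.8%), 5 of 15 basement membrane genes (33.3%) and 8 of 29 matrix proteases and inhibitors (27.6%). No gene of these lists was lower than all 7.

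Col3a1, a chain of reticular collagen, had 3852 in interstitial cells, against 83.9 in laminin-binding, 68.4 in laminin non-binding, 129, 166, 133 and 480 in STO day 1, 5, 10 and 20, and 604 in MSC1 cells. Both 20-day feeder libraries stood above the other germ libraries, and the interstitial signal was 6.37-fold over MSC1. Col1a2, of type I collagen, had 3650 in interstitial cells, against 81.3 to 761, and a second probe set of it had 2942, against 32.2 to 1285, which did not pass. Col1a1, the partner chain, had 1971 in interstitial cells, against 67.9 to 693, and missed against MSC1 at 2.84-fold, while a dimmer probe set of it passed at 8.31-fold. The beaded collagen genes Col6a1 and Col6a3 had 1684 and 2254, against germ maxima of 189 and 154, although another probe set of Col6a3 on type B lay 0.87 below the nearest germ library on the log2 scale.

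Among the processing enzymes, Serpinh1, the collagen chaperone, had 1104 in interstitial cells and 47.8 or less in the germ libraries, at least 22.1-fold. The crosslinking enzymes Lox and Loxl1 had 2277 and 510, against germ maxima of 729 and 105, and Pcolce, which aids procollagen cleavage, had 1326, against 41.8 to 404. Col5a1, Plod2 and Fkbp10 passed 6 of the 7.

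Dcn, the small proteoglycan decorin, had 4330 in interstitial cells, against 54.5 in laminin-binding, 73.3 in laminin non-binding, 51.1, 56.8, 41.8 and 126 in STO day 1, 5, 10 and 20, and 39.6 in MSC1 cells. All 7 germ signals lay near the floor, and the fold over STO day 20 was 34.4. Its relatives Lum and Ogn had 1847 and 1045 in interstitial cells with every germ library under the floor, at least 36.9-fold and at least 20.9-fold. Efemp1, an elastic fibre protein, had 1220, against 0.4 to 31.9, at least 24.4-fold. Abi3bp, a matrix-binding protein, had 2380, against 17.7 to 172, Mgp, an inhibitor of calcification, had 2412, against 2.6 to 308, and Fbn1, the microfibril protein fibrillin, had 1992, against 45.0 to 379. Vcan, Mfap5, Tgfbi, Matn2 and Cthrc1 were the other called members, at 4.25-fold to 9.25-fold. Fibronectin (Fn1), Sparc and Bgn passed 6 of the 7, and Fn1 had 3188 in interstitial cells, against 178 to 1420 with STO day 20 the highest. Another probe set of Sparc was called, with 616 in interstitial cells, against 27.0 to 125, a 4.92-fold difference.

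Laminin chains of the basement membrane were among the calls. Lamb1 and Lamc1 had 2657 and 3034 in interstitial cells, against germ maxima of 844 and 673 in MSC1 cells. Lama2, the muscle and stromal chain, had 920, against 53.9 to 143, and Lama4, the vessel chain, had 1008, against 2.2 to 52.5. A type B probe set of Lama4 had 126, against 31.7 to 171, and lay 0.44 below the nearest germ library on the log2 scale. Col4a5 had 1505, against 52.0 to 211.

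Of the proteases, Mmp2, a gelatinase, had 3695 in interstitial cells, against 92.1 to 401, and Ctsk, a collagen-degrading cathepsin, had 1568, against 47.1 to 126. A second probe set of Mmp2 had 83.4 in interstitial cells, against 69.3 to 254, and was not called. The inhibitor Timp1 had 2214, against 126 to 457. Adamts5, an aggrecanase, had 548 with every germ library under the floor, and Adamts1, Adamts4 and Adamts9 were called at 4.04-fold to 4.86-fold, although a type B probe set of Adamts9 lay 1.64 below the nearest germ library on the log2 scale.

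Fibroblast and mesenchymal genes gave 9 calls of 33 measured (27.3%). Dpt, a dermatopontin that binds decorin, had 2088 in interstitial cells, against 17.4 to 52.8, a 39.5-fold difference. Nr2f2, a transcription factor of stromal cells, had 1865, against 39.9 to 114. Its type B probe set had 68.9, against 44.3 to 202, and lay 1.55 below the nearest germ library on the log2 scale. Fstl1 had 2083, against 75 to 278, and the ecto-enzyme Nt5e had 918, against 20.8 to 78.1. Other probe sets of Fstl1 had 80.6 and 757, against 5.4 to 87.3 and 54.5 to 289, and were not called. Anxa1 had 3332, against 104 to 727. Its type B probe set had 1016, against 171 to 1798, and was 3-fold over 4 of the 7. It lay 0.82 below the nearest germ library on the log2 scale. Those type B probe sets were not the ones used to read these genes in the lists, and which of them measures the transcript was not tested.

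None of the 20 measured endothelial genes was called, where 4.34% of all measured genes were called higher. So short a list says little at that share. The list median was -0.01. Kdr, the VEGF receptor, had 155 in interstitial cells, against 29.6 to 86.2, and Pecam1 had 14.8, against 2.5 to 76.5. Lyve1, a receptor of lymphatic vessels and some macrophages, had 71.9 by its type A probe set, against 6.1 to 71.6, and 723 by its type B probe set, against 13.7 to 127. Of 28 measured smooth muscle, myoid and pericyte genes, Cald1, Kcnj8 and Abcc9 were called (10.7%, against 4.34% of all measured genes). Mylk, Tpm2 and Actn1 passed 6 of the 7, 19 of the 28 lay above 0 and the list median was 0.71, against -0.29 on type B alone. Kcnj8 and Abcc9 form a potassium channel of pericytes, with 283 and 512 in interstitial cells, against germ maxima of 81.5 and 48.8. Other probe sets of Abcc9, at 22.1 and 50.6 in interstitial cells, and of Cald1, at 7.5 and 466, were not called. Acta2, the smooth muscle actin, had 66.8, against 10.7 to 78.9.

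Genes of xenobiotic and oxidative defence had the highest share of higher calls among the 27 lists, 11 of 30 measured (36.7%), with a median of 1.34. Cytosolic glutathione transferases were among them: Gsta1 had 3412 in interstitial cells, against 79.6 to 315, Gsta4 had 1730, against 57.5 to 207, Gstp1 had 1808, against 19.9 to 187, and Gstm1 had 252, against 3.5 to 48.5. Gstm1 lay 2 signal units above the minimum, and it was not called under the other scalings of the arrays. The microsomal transferases Mgst1 and Mgst2 had 3764 and 2114, against germ maxima of 410 and 344. Cyp1b1, a cytochrome that also hydroxylates estrogens, had 4010, against 90.3 to 386, and Aldh1a1, which makes retinoic acid, had 3221, against 65.7 to 153. Hmox1, the haem-degrading enzyme, had 2332, against 102 to 663.

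Of 25 measured glycolysis and hypoxia genes, Tpi1, Eno2, Ldhb and Ndrg1 were called (16%). Ldhb had 2207 in interstitial cells, against 159 to 255, and Ldha, its muscle-type partner, had 2966, against 197 to 1913, and passed 6 of the 7. Of 43 measured ligands and receptors 5 were called (11.6%), Igf1, Kitlg, Egfr, Fzd1 and Il6st. Kitlg, the ligand of the Kit receptor of germ cells, had 521, against 37.2 to 110. Its other probe sets had 10.5 to 58.1 in interstitial cells and were not called. Egfr had 468 on type A, against 5.5 to 59.0, and 4886 by its type B probe set, against 9.9 to 143, at 7.94-fold and 34.2-fold, while the other type A probe set read under the floor throughout.

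Genes outside the lists were also among the largest differences. Clic2, an intracellular channel protein, had 6319 in interstitial cells, against 40.6 to 132, a 48.0-fold difference. Fgl2, a fibrinogen-like protein of macrophages and other cells, had 9384, against 14.7 to 206, 45.5-fold, and all 4 of its probe sets were called. Lnx1 (32.7-fold), Steap4 (31.9-fold), Tshz1 (28.5-fold) and the adhesion molecule Vcam1 (28.1-fold) followed. Another probe set of Tshz1 was called at 6.3-fold. Further ones had 34.3 in interstitial cells, against 11 to 112, and 30.1, against 25.9 to 155, and were not called. With every germ library under the floor, the collagen receptor Ddr2 had 2626 in interstitial cells, the haem carrier Hpx 1342, Acss3 1200, the lipolysis inhibitor G0s2 1070, Sh3bgrl1 936 and Clec3b 866, at least 17.3-fold to at least 52.5-fold. Of the other probe sets of Ddr2, on type A, one was called at 7.51-fold and one, at 38.2 in interstitial cells, was not, and another of Clec3b was under the floor in all 8 libraries.

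The 283 probe sets that were lower in interstitial cells were led by germ cell genes. Of 9 measured general germ cell genes 8 were lower than all 7, against 1.49% of all measured genes, and the list median was -4.14. Tex15, needed for meiotic recombination and for piRNA-directed silencing in mouse, had 71.1 in interstitial cells, against 6778 in laminin-binding, 3681 in laminin non-binding, 13775, 17497, 12646 and 8349 in STO day 1, 5, 10 and 20, and 14006 in MSC1 cells. Every germ library was at least 51.8-fold above interstitial cells for Tex15. Tex14, of the bridges between germ cells, had 140 in interstitial cells, against 1756 to 5442, and Tex101, a germ cell surface protein, had 57.1, against 640 to 2927.

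The piRNA pathway genes Tdrd1, Mov10l1 and Piwil2, which silence transposons in germ cells, had 390, 7.4 and 123 in interstitial cells, against germ minima of 2836, 420 and 595. Tex19.2 had 116, against 1011 to 3977. Gpat2 and Asz1, outside the lists and also known from this pathway in mouse, had 17.5 and 20.3, against germ minima of 967 and 493, at least 19.3-fold and at least 9.86-fold lower. Of 10 measured meiotic prophase genes 3 were lower than all 7: Sycp3 had 104, against 548 to 4181, Stag3 had 83.9, against 629 to 3137, and Syce3 had 58.7, against 272 to 508.

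RNA-binding and transcription factors of germ cells stood in the same group. Cpeb1, a translational regulator, had 32.6 in interstitial cells, against 1040 to 1993, at least 20.8-fold lower. Taf7l, a germ cell subunit of the general transcription machinery, had 94.3, against 1447 to 5696, and Elavl2 had 72.0, against 904 to 3894. Igf2bp3, an RNA-binding protein, had 148, against 1708 to 3264. Other probe sets of Elavl2 and Igf2bp3 were not called. Those of Elavl2 had 52.7, against 7.7 to 97.2, and 33.0, against 215 to 924. Those of Igf2bp3 had 20.7, against 38.0 to 208, and 50.2, against 107 to 712. Myh14 (15.8-fold), Dxo (15.1-fold), Tmem130 (12.2-fold), Dock3 (11.8-fold), Ccdc88c (11.7-fold) and Rhov (10.1-fold) were the other large differences above the floor, and Erhl1, Magea9, Ccne2, Gtpbp6, Mlf1, Rere and Prdm2 were called by a probe set with an interstitial signal under it. Other probe sets of 4 of these genes were above the floor in interstitial cells. That of Rere had 1074 in interstitial cells, against 230 to 710. That of Ccne2 on type B had 169, against 94.3 to 258, and was not called. Those of Prdm2 with the highest signal had 167 in interstitial cells, against 175 to 455, and 121, against 150 to 260, and were not called, while that of Gtpbp6 had 288, against 912 to 1977, and was called. A second probe set of Rhov had 43.7 in interstitial cells, against 31.2 to 98.4, and was not called.

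Early spermatogonial genes were seldom called lower, a call that needed 250 in every germ library. Of 17 measured genes of undifferentiated spermatogonia, Epcam alone was called, where 1.49% of all measured genes were called lower. Epcam had 34.3 in interstitial cells, against 636 to 2617. None of the 17 had a log2 difference above 0 and the list median was -1.30. Ret, the signalling part of the GDNF receptor, had 1.5 in interstitial cells, against 48.6 to 1730. Cell cycle genes had a median of -1.59, with none of 34 above 0, and Mki67, Mcm5 and Cdt1 were called, Cdt1 not with quantile normalization. Mki67, a marker of cycling cells, had 331 in interstitial cells, against 1320 to 2820. Fabp5, a fatty acid carrier of the Sertoli list, was also lower, with 964 in interstitial cells, against 2988 to 6579, a call that quantile normalization ended. None of the 13 measured pachytene and later genes was called, and so short a list says little at the 1.49% of all genes. Crisp2, of the sperm acrosome, had 448 in interstitial cells, against 1.2 to 3811 with laminin non-binding the highest.

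The tubular somatic library, the population most like the interstitial one by correlation, showed which of these genes the somatic cells of the tubules carried as well. Both comparisons with germ cells would share the same 7 libraries, so the interstitial and tubular signals are given side by side. Of the 971 probe sets higher than all 7 germ libraries, 455 (46.9%) had at least 3-fold more signal in interstitial than in tubular somatic cells and 9 had at least 3-fold less, while 3.17% of all 31042 probe sets were 3-fold higher in interstitial cells and 2.54% were 3-fold lower. Since the 971 were chosen for a high interstitial signal, this share was partly set by that choice, and among the 8903 probe sets with an interstitial signal of at least 250 it was 11%.

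The programmes differed in this. All 12 called proteoglycan, elastic fibre and matricellular genes were at least 3-fold over tubular somatic cells, with a median log2 difference of 3.17, as were 11 of 13 called macrophage genes (2.93) and 6 of 8 called Leydig genes (3.86). Cyp11a1, Hsd3b1, Igf1 and Pdgfra were under the floor in tubular somatic cells, at 49.3, 8.6, 32.7 and 42.6. Of the other macrophage genes, Cd48 had 1025 in interstitial cells and 514 in tubular somatic cells, and Mpeg1, a pore-forming protein, had 902 in interstitial cells and 3492 in tubular somatic cells. By contrast 8 of the 11 called defence genes and 4 of the 5 called basement membrane genes lay within 3-fold of the tubular signal, such as Mgst1 with 3764 in interstitial and 3473 in tubular somatic cells and Col4a5 with 1505 and 1343. Kitlg, Aldh1a1 and Vnn1 of the Sertoli list were also within 3-fold of the tubular somatic library.

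**Figure D4:**
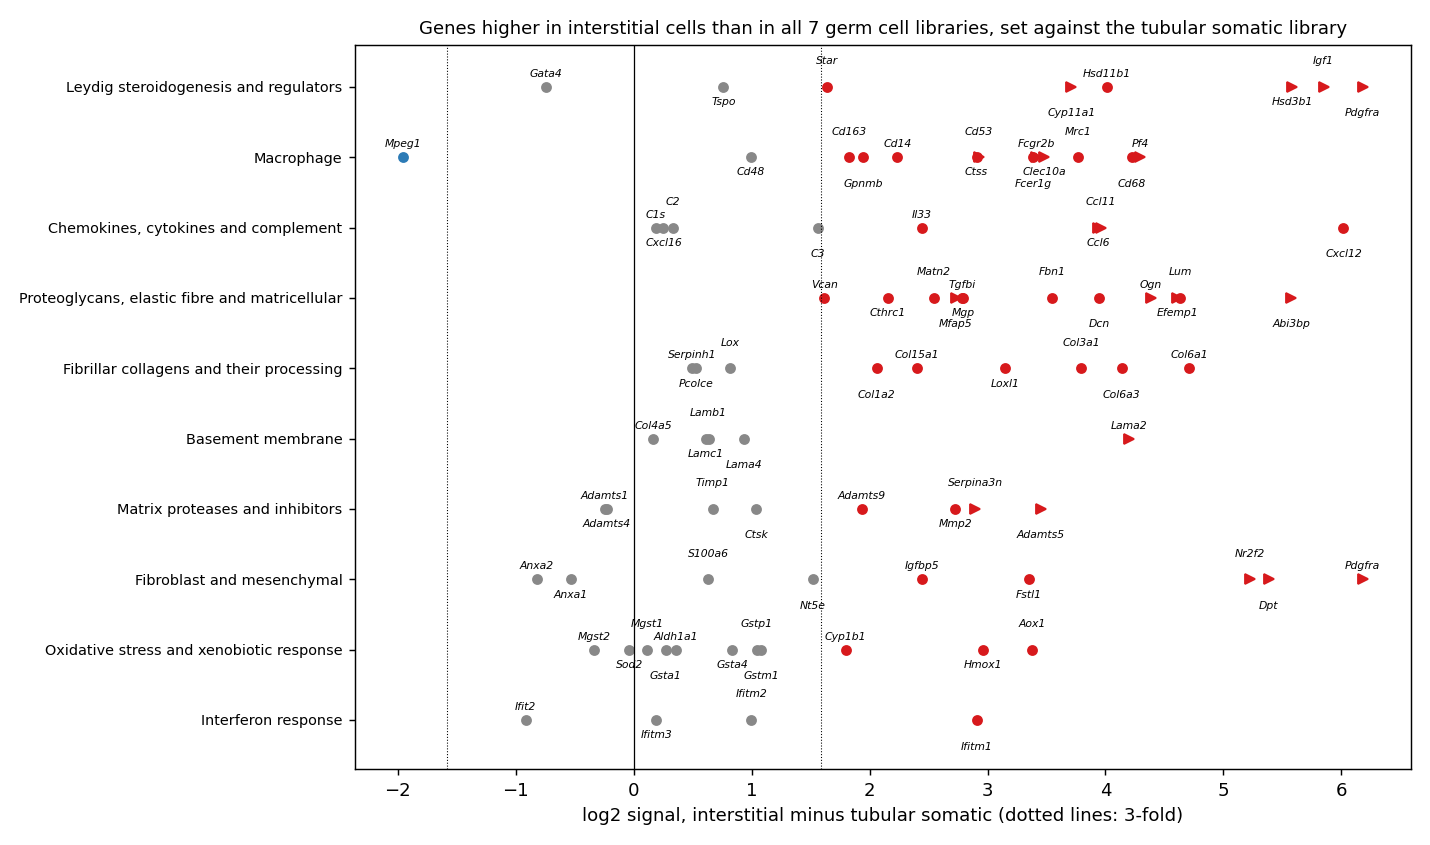
Log2 signal difference, interstitial minus tubular somatic (horizontal axis), of the genes of 10 lists that were higher in interstitial cells than in all 7 germ cell libraries; arrowheads mark tubular signals under the floor of 50, where the difference is a lower bound, and dotted lines mark 3-fold. Red genes are at least 3-fold higher in interstitial cells, grey ones within 3-fold, and Mpeg1, in blue, is 3-fold lower.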

How the data were processed

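Each library had been hybridised to 1 array of type A and 1 of type B. The deposited values are linear intensities, 1 for each probe set, and per the labels the authors brought the average of every array to 250. Detection calls (Tau of 0.015, per the labels) were not used. Software and background step were not given in the sources used here. Array number limits the precision.

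Leaving out 57 control probe sets per type, and the type B copy of the 100 that both types hold, left 31042. Genes were named from the platform annotation for probe sets with 1 gene, with symbols updated to RefSeq GRCr8. Of the 971 higher probe sets 678 had 1 gene (617 genes), 16 several and 277 none. A gene in a list was read from 1 probe set, on type A where that type has it and then the brightest, for 13807 genes. Signals were raised to 50 and taken to log2 with python 3.11.15, numpy 2.4.6 and pandas 2.3.3. The code of the call was run on simulated data with large planted shifts, which checks the code and not the calls made here. No test was possible with 1 library per population.

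The members and the 27 gene lists were chosen with earlier results of these data known. Named genes were every list member called against all 7 (some given by count), the 12 largest folds in each direction above the floor, the 12 largest bounds under it, and genes past 6 of 7 and defining markers of a list. Results for lists that share genes (13 genes) are not independent. Ret, Ptprc, Fdx1, Hsd17b10, RT1-Da, RT1-Ba, Cd74, Lyve1, Nr5a1, Akr1c14, Gzmb, RT1-S3 and the text's choices within a count were named after their values were seen. So were Fcgr3a, Adgre1, Cx3cr1, Tyrobp and Cybb. The alternatives were another floor, scaling, minimum signal, fold, array type, set of germ libraries and probe set reading.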

Additional observations from a re-analysis of the deposited data

How the results depend on the processing

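No paired analysis was possible because each population had 1 array per type. The counts of higher and lower probe sets, 971 and 283, became 1531 and 660 with a fold of 2, 503 and 110 with a fold of 5, and 759 and 173 with a minimum of 500. On type A alone they were 517 and 137 and on type B alone 454 and 146, since each type holds about an equal part of the probe sets. Against the 2 laminin-sorted libraries alone they were 1501 and 633, and against the 5 feeder-grown libraries alone 1159 and 552, as fewer libraries had to be passed. With 1 germ library left out they were 986 to 1063 and 285 to 377. With scaling to the 75th percentile they were 932 and 314 and with quantile normalization 954 and 300, of which 923 and 921 higher probe sets were shared with the 971. The median of all measured genes, -0.13, was -0.22 with a floor of 25 and -0.01 with a floor of 100. The Leydig list median of 0.84 was 0.44 with a floor of 100, 2.67 on type B alone and 0.52 with the mean over the probe sets of a gene. The macrophage median of 1.34 was 0.78 with a floor of 100 and 1.88 on type B alone. The fibrillar collagen median of 1.69 was 1.97 on type A alone, 1.29 on type B alone and 1.98 against the laminin-sorted libraries. With 1 germ library left out the 3 medians were 0.69 to 0.88, 1.24 to 1.42 and 1.68 to 1.74. On type B alone 3 list medians turned sign: antigen presentation (-0.80), fibroblast and mesenchymal (-0.01) and smooth muscle (-0.29). There 7 named genes turned sign in log2 difference to the nearest germ library: Adamts9 (-1.64), Nr2f2 (-1.55), Col6a3 (-0.87), Anxa1 (-0.82), Lama4 (-0.44), Igfbp5 (-0.06) and Ccne2 (0.84). A signal inside the germ range also counts as a turned sign by this measure. Those of Anxa1, Lama4, Nr2f2 and Ccne2 lay inside it, and that of Igfbp5 was under the floor. Those of Adamts9 and Col6a3 lay below every germ library. The cause of these sign changes was not tested. Of 147 named genes followed, 146 stayed called with scaling to the 75th percentile, 143 with quantile normalization (not C3, Cdt1, Fabp5 and Gstm1), 139 with a floor of 100 and 129 with the mean over the probe sets of a gene. With a minimum of 500 it was 126 and with a fold of 5 it was 103. On type B alone 50 of the named genes had a value, of which 37 stayed called and 13 did not. Signals under the floor of 50 carry no order here.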

Other observations

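The germ library with the highest signal was counted for the genes that were higher in interstitial cells and had a germ signal above the floor, as a description of single libraries. Over all 896 such probe sets it was MSC1 day 20 for 237, laminin-binding for 194 and STO day 20 for 137. Among 12 macrophage genes it was MSC1 day 20 for 6, laminin-binding for 3 and STO day 20 for 0, and among 5 basement membrane genes it was MSC1 day 20 for 4. Among 9 proteoglycan, elastic fibre and matricellular genes and 8 collagen genes it was STO day 20 for 3 each and laminin-binding for 0 each. Among 9 defence genes it was laminin-binding for 4, and Hmox1, for example, had 663 there. No difference between these groups was tested. The fibroblast marker sum, 19272 in interstitial cells, was 911, 1056, 1102 and 2254 on STO day 1, 5, 10 and 20 and 2018 on MSC1 day 20, against 510 and 350 in laminin-binding and non-binding cells. STO and MSC1 are mouse lines, and the part of feeder RNA in these values was not tested.

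Immediate early genes were not raised as a group in interstitial cells, with a median of -0.01 over 23 measured genes. Of the 23, 2 were called (8.7%, against 4.34% of all measured genes). These were Ier3 with 569 in interstitial cells, against 35.6 to 168, and Myc with 280, against 17.9 to 81.8. S100b and Pmp22, both known from Schwann cells and other cells, had 759 and 2722 in interstitial cells, against 52.2 to 104 and 135 to 476, while the defining Schwann markers on the arrays, Mbp and Sox10, were under the floor. A second probe set of Pmp22 had 105, against 89.0 to 135, and was not called. Of the 617 genes with a probe set higher than all 7, 279 had several probe sets. For 52 of these more than 1 was called, for 32 all were called and for 227 only 1 was called. In all, 0 genes had probe sets called in opposite directions. Among the 222 genes with a lower probe set, 88 had several, 6 had more than 1 called and 2 had all called.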
